A study of Mus musculus with 4 samples.

Results

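DnaJ and heat shock protein genes carried N6-methyladenosine (m6A) peaks on 46 genes of mouse liver, of 9650 genes with a peak in all. They were taken by gene symbol: every symbol that begins with Dnaja, Dnajb or Dnajc and a digit, or with Hsp and a further letter or digit, in either of the 2 deposited peak lists, with Hsp90ab1 left out. The rule itself uses no measured value. On 41 of these genes the FF list held 66 peaks, and on 44 of them the HKO list held 67. The peaks come from methylated RNA immunoprecipitation sequencing, in which fragments bound by an m6A antibody (IP) are sequenced beside untreated input, and a peak is a stretch of exon with more IP than input reads.

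The FF list was made from livers of Alkbh5flox/flox mice, whose Alkbh5 gene carries loxP sites, and the HKO list from livers of Alkbh5-HKO mice. Alkbh5 encodes a demethylase that removes m6A from RNA. The labels do not spell out HKO and name neither the Cre driver nor the deleted part of the gene. Mice of both groups were fed normal chow and aged 9 weeks, and liver RNA of 3 animals was pooled per group. Each genotype was thus 1 pool with 1 IP and 1 input library, so that differences between genotypes could not be checked in replicates or tested.

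Chaperones help proteins reach and keep their folded form. Hsp70 proteins bind exposed hydrophobic stretches in cycles of ATP hydrolysis. J-domain proteins (the DnaJA, DnaJB and DnaJC classes) bring them clients and stimulate the hydrolysis, while Hsp110 proteins and other exchange factors release the nucleotide and so the client. Hsp90 proteins act later on partly folded clients, chaperonins enclose proteins in a chamber, and small heat shock proteins hold unfolded proteins without ATP. Hepatocytes secrete most plasma proteins and depend on the chaperones of the endoplasmic reticulum (ER), whose genes are induced by the unfolded protein response. m6A in messenger RNA is most frequent near stop codons and in long internal exons and influences RNA stability and translation.

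The lists give no read totals, so the depth behind each value is unknown. A missing peak does not show that an RNA lacked m6A, since an RNA with few reads gives no peak. Fold enrichment (IP over input), p and q values per peak are the authors' own. Set side by side for both genotypes they come from separate IP reactions and show no direction of change. Alkbh5 itself had 3 FF peaks and 0 HKO peaks. Of 10 hepatocyte marker genes 8 had a peak, of which Apoa1, Apob, Hnf4a and Pck1 were in both lists, Alb in FF alone and Ttr, Cps1 and Cyp2e1 in HKO alone. Tf and Serpina1c had none. Markers of other liver cells with a peak numbered 3 of 6 for Kupffer cells, 3 of 5 for endothelial cells, 4 of 5 for stellate cells, 2 of 5 for cholangiocytes and 1 of 4 for leukocytes, and their part in the results was not tested. In bulk liver, fewer cells of a type and less RNA per cell cannot be told apart.

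Most chaperone genes carried m6A peaks in both genotypes. Of the 46 genes, 39 had a peak in both lists (84.8%, 95% Wilson interval 71.8 to 92.4), where the share over all genes with a peak was 75.6%. Dnajc2 and Hsp90b1, 2 genes, had FF peaks alone, against 11.2% of all genes. HKO peaks alone were found on 5 genes, Dnajb5, Dnajc3, Dnajc7, Hspa2 and Hspb1, against 13.2% of all genes. With peaks of either list limited to q values up to 1e-05, the genes in the HKO list alone were 3, Dnajb5, Dnajc3 and Dnajc10, and those in the FF list alone were 3, Dnajb2, Hsp90b1 and Hsph1. At this limit Dnajc2, Dnajc7, Hspa2 and Hspb1 had no peak left in either list, and 38 members had a peak. Peaks were called overlapping if their exon blocks shared at least 1 bp on the same strand. By this rule 53 of 66 FF peaks (80.3%, 69.2 to 88.1; 74.8% of all FF peaks) and 53 of 67 HKO peaks (79.1%, 67.9 to 87.1; 71.5% of all HKO peaks) overlapped a peak of the other list. These 3 intervals, which cover counting error alone, each held the value for all genes or peaks.

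Peaks on chaperone genes had somewhat lower median folds than the lists as a whole, but smaller median q values. Their median fold was 6.73 among FF peaks and 9.03 among HKO peaks, beside 8.80 and 10.4 over all peaks. Their median log10 q was -10.7 in FF and -17.4 in HKO, beside -7.79 and -8.7 over all peaks. The median exonic length was 239.5 bp in FF and 239 bp in HKO, beside 241 bp and 269 bp. A peak made of more than 1 exon block, and so spanning a splice junction, was found 15 times in FF (22.7%, 14.3 to 34.2; 17.4% of all FF peaks). In HKO it was found 16 times (23.9%, 15.3 to 35.3; 13.9% of all HKO peaks). The FF interval held the share over all peaks and the HKO interval lay above it, both covering counting error alone. The plot of fold by gene gives every peak by class.

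**Figure D1:**
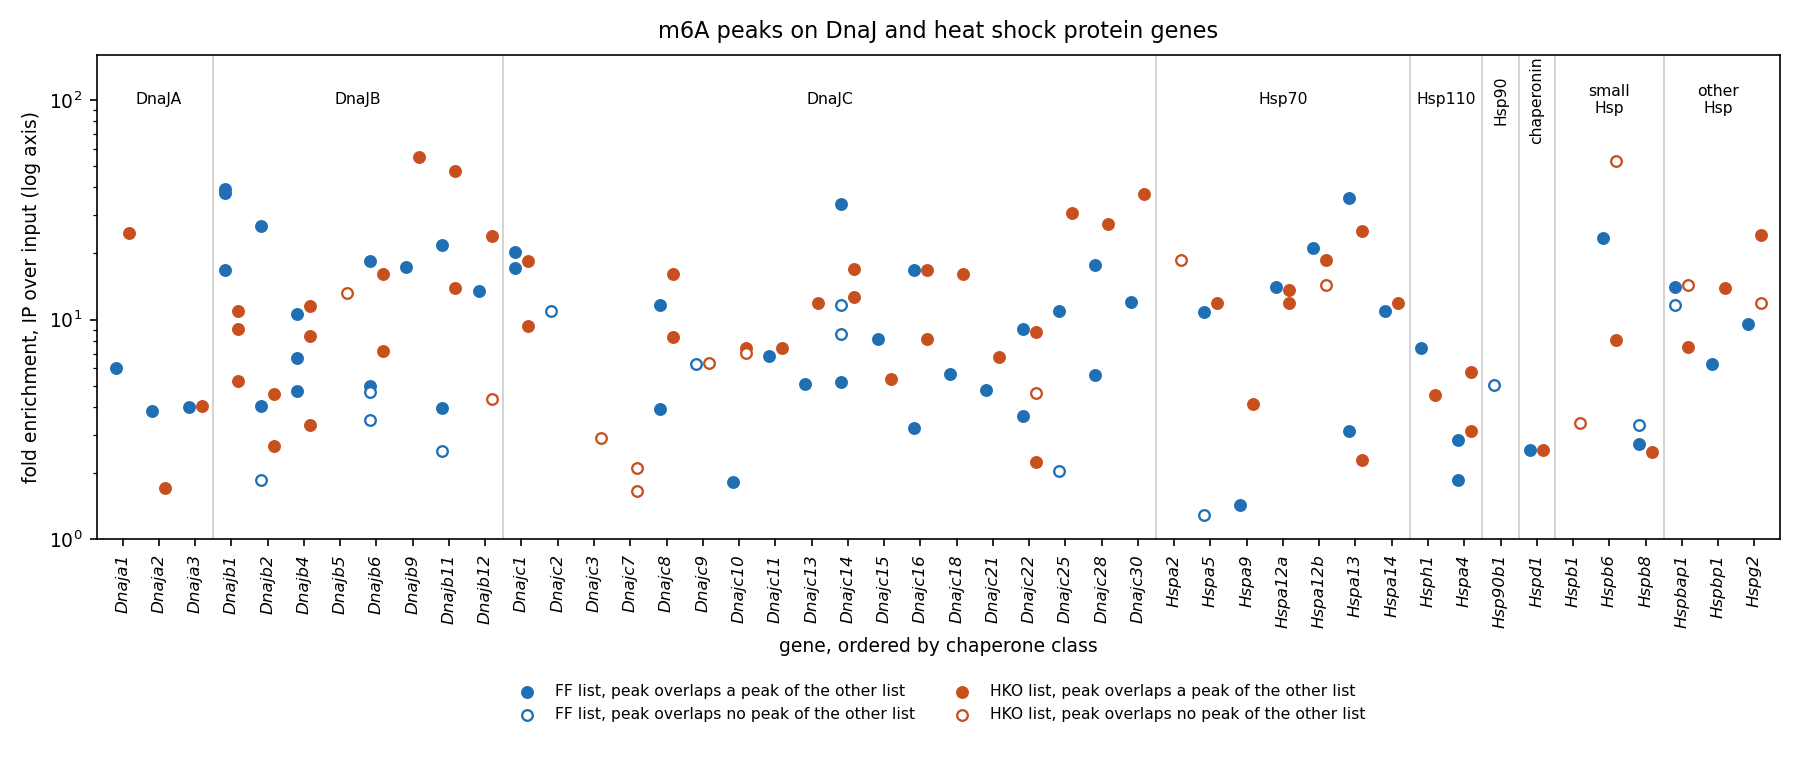
Fold enrichment of IP over input (log axis) of every m6A peak on the 46 genes, ordered by chaperone class; blue is the FF list, orange the HKO list, and open circles overlap no peak of the other list. The values run from 1.29 (Hspa5, FF) to 55.1 (Dnajb9, HKO), and Hsp90b1 has an FF peak alone.

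Among the chaperones of the ER, Hsp90b1 and Hspa5 had an FF peak near the gene start that overlapped no HKO peak. Hsp90b1 encodes GRP94, the Hsp90 of the ER, and Hspa5 encodes BiP, its Hsp70. The Hsp90b1 peak covered chr10:86705324-86705444 (GRCm38.p6, minus strand), which is bases 1 to 121 counted from the annotated start, with fold 5.05 and log10 q -13.6. It was the gene's sole peak in either list. The Hspa5 start peak, at chr2:34772328-34772417 on the plus strand, spanned bases 239 to 328 and was weak (fold 1.29, log10 q -2.60). The promoter windows of these genes are shown with that of Dnajc3, since in these 3 of the 39 genes with an entry in the RefSeq promoter table (GRCm38.p6) a search found the ER stress response element (CCAAT, any 9 bases, then CCACG), a motif of promoters induced by unfolded proteins in the ER. Each runs 5′ to 3′ from 250 bp before the start to 30 bp after it, and capitals mark the element on either strand.
Hsp90b1 promoter window, chr10:86705415-86705694, minus strand: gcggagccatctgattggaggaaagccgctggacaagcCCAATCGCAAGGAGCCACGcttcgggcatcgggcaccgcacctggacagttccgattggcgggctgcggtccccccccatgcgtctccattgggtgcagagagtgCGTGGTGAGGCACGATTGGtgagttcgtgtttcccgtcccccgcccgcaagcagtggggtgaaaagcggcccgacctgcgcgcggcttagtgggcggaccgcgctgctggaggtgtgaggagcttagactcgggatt
Hspa5 promoter window, chr2:34771840-34772119, plus strand: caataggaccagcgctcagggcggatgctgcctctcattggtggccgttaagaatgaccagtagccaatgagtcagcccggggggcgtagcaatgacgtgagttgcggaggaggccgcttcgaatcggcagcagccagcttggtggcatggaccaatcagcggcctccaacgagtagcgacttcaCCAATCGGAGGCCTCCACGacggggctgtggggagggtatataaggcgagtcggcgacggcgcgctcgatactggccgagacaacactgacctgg
Dnajc3 promoter window, chr14:118937682-118937961, plus strand: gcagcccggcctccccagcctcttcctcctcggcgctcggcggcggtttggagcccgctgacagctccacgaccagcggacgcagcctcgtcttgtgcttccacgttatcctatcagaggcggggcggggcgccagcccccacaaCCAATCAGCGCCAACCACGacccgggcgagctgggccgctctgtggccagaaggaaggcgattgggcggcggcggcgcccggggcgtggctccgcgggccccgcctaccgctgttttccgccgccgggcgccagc
In Hsp90b1 the last 30 letters lie inside the FF peak. The element began at -212 and, on the opposite strand, at -107 from the start of Hsp90b1, at -65 in Hspa5 and at -105 in Dnajc3. It was present in 3 of 53 member windows (5.66%) and in 39 of 32851 windows over all genes (0.119%), counting both strands of the full 300 bp window. A match of letters is a description and shows no factor bound there. The entries for Dnajc11, Dnajc18, Dnajc2, Dnajc22, Dnajc30, Hspa13 and Hspa9 were missing from the table.

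BiP also had the peak of smallest q among the Hsp70 genes. It lay at chr2:34775697-34776410 in FF (fold 10.8) and at chr2:34775667-34776410 in HKO (fold 11.9), 475 bp and 490 bp from the gene end, and both files give its log10 q as minus infinity, the logarithm of a q stored as 0. The BiP start peak therefore stood beside a far stronger peak that the lists share, whereas the GRP94 start peak stood alone.

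FF peaks near a start were also found on Dnajb11, Dnajc25 and Hspb8. Dnajb11 encodes an abundant J-domain partner of BiP, Dnajc25 a J-domain membrane protein, and Hspb8 a small heat shock protein that works with Bag3. Their windows, in the same layout, complete the set of genes whose FF peak overlapped no HKO peak and was centred downstream of, and within 500 bp of, a start in that table. None of the 3 held the element in the single form searched, so nothing is in capitals. Other arrangements of its letters were not searched, such as the attggcccacg near the end of the Dnajb11 window. The absence of capitals therefore does not show that these promoters lack every form of the element.
Dnajb11 promoter window, chr16:22857595-22857874, plus strand: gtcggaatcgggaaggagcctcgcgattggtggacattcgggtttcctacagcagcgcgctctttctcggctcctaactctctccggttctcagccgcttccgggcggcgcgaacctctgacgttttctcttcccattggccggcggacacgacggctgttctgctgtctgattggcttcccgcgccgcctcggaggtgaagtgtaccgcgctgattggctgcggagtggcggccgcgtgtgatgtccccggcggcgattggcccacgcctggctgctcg
Dnajc25 promoter window, chr4:59002943-59003222, plus strand: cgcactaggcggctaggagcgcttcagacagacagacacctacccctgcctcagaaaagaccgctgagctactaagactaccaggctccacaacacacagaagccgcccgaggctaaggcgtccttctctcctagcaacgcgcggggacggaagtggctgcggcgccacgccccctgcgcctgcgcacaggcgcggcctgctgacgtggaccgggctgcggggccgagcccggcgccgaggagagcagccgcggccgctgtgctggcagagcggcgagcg
Hspb8 promoter window, chr5:116422835-116423114, minus strand: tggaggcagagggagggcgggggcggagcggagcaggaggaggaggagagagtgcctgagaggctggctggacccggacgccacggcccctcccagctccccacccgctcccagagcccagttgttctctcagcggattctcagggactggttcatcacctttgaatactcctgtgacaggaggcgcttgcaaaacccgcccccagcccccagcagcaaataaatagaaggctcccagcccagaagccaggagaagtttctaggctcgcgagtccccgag
The Dnajb11 peak (chr16:22857905-22858055, plus strand, fold 2.53, log10 q -3.96) spanned bases 61 to 211 from the start. The Hspb8 peak (chr5:116422656-116422864, minus strand, fold 3.32, log10 q -28.4) spanned bases 1 to 209, so that the last 30 letters lie inside it. A neighbouring HKO peak of Hspb8 was centred 446 bp from the start, so this end of the gene was not without HKO signal. The Dnajc25 peak (chr4:59003264-59003384, plus strand, fold 2.04, log10 q -2.05) spanned bases 72 to 192 from the start in that table, although it was centred 8525 bp from the start of the gene span.

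The heat shock element, searched as GAA, any 2 bases, TTC, any 2 bases and GAA on both strands, was found in the windows of Dnajb6, Hspd1 and Hsph1. These were 5 of 53 member windows (9.43%), beside 198 of 32851 over all genes (0.603%). GGACT, a common form of the m6A consensus, was in the 50 bases after the start in 3 of 53 member windows (5.66%) and in 5.76% of all windows, counted on the transcribed strand.

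The ER-resident members as a group, put together after the values were seen, numbered 12: Hspa5, Hspa13, Hsp90b1, Dnajb9, Dnajb11, Dnajb12, Dnajc1, Dnajc3, Dnajc10, Dnajc14, Dnajc16 and Dnajc18. Of these, 10 had a peak in both lists (75.6% of all genes with a peak). They carried 20 FF and 18 HKO peaks, and 15 of each overlapped the other list, where the shares over all peaks were 74.8% and 71.5%. Of the 5 FF peaks with no overlap, 4 had their centre no more than 500 bp from the annotated start of the gene (Hspa5, Hsp90b1, Dnajb11 and Dnajc14; 34.7% of all such FF peaks), and none of the 3 HKO peaks with no overlap was (4.71% of all such HKO peaks). The other 34 members had 8 such FF peaks, of which 2 lay at a start (Dnajc2 and Hspb8). The groups were not compared by a test. Of the 4 ER peaks that of Hsp90b1 alone had a q up to 1e-05, and that of Dnajc14 had a log10 q of -2.12 and a centre at -335 bp from the nearest start in the promoter table.

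Several ER members carried strong peaks in both lists. Dnajb9, which encodes a repressor of the stress sensor IRE1, had 1 peak in each list, 1273 bp (FF) and 1272 bp (HKO) from the gene end on the minus strand of chromosome 12. Its limits were 44206844 to 44208176 in FF (fold 17.4) and 44206755 to 44208264 in HKO (fold 55.1), and its log10 q was minus infinity in both. The HKO value was the highest fold of any member and exceeded 96.3% of HKO peaks. Dnajb11 had a pair of internal and end peaks in each list besides its start peak: the internal pair stood at 3.95 in FF and 47.5 in HKO, and the end pair, 374 bp and 329 bp from the gene end, 21.8 and 14.0. The list with the higher fold thus differed between the 2 sites. The internal HKO peak, however, was made of 2 exon blocks and 391 bp, and the internal FF peak of 1 block and 241 bp. Dnajb12, a J-domain protein of the ER membrane, had a junction-spanning peak in both lists (fold 13.5 and 24.1, log10 q -140 and -203) and a further HKO peak near its end (fold 4.36, log10 q -3.52).

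Dnajc3, an inhibitor of the kinase PERK and co-chaperone of BiP, had 1 peak, in the HKO list, at chr14:118978253-118978343 on the plus strand (fold 2.89, log10 q -5.91), 3404 bp from the gene end. Dnajc10, an ER disulfide reductase, had an end peak in both lists, at 1.82 and 7.41, and an internal HKO peak (fold 7.07, log10 q -6.80) with no FF counterpart. Hspa13, a microsomal Hsp70, had a long peak of 925 bp in FF (fold 35.9) and 1134 bp in HKO (fold 25.2), and a short one at 3.13 and 2.29. Dnajc14, an ER membrane protein, had the longest peak of all members, 1410 bp in both lists, at 33.6 in FF and 17.0 in HKO. It also had a weaker pair at 5.22 and 12.7, and FF peaks of 11.7 and 8.62 that overlapped nothing in HKO. Dnajc1 had 2 pairs, at 17.2 and 18.4 and at 20.4 and 9.33, and Dnajc16 had 2 pairs, at 16.8 and 8.20 and, nearer the end, at 3.21 and 16.8. Dnajc18 had 1 peak in each list near the gene end, at 5.68 and 16.1.

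Members assigned to mitochondria had peaks near the gene end in both lists. The group was put together after the values were seen. The 6 members assigned there are Hspd1 (the Hsp60 chaperonin), Hspa9 (mortalin, the mitochondrial Hsp70), Dnaja3, Dnajc11, Dnajc15 and Dnajc30. Each had 1 FF peak and 1 HKO peak, the peaks of a gene overlapped, and all 12 were centred within 1000 bp of the gene end, from 147 bp to 910 bp in FF and from 162 bp to 895 bp in HKO. Over all genes, 26.6% of FF peaks and 31% of HKO peaks lay in that window. The span of Dnajc30 is only 1160 bp, so that most of this gene falls in the window. Dnajc28, which was assigned to no named place in the cell, had peaks 1618 bp and 2411 bp (FF) and 2007 bp (HKO) from the gene end. These lay outside the window, so the result for the group depends on which members were assigned to it. Clpp, Clpx and Lonp1, mitochondrial genes that the symbol rule does not reach, had an FF peak at the start besides a peak near the end. Hspd1 had the same limits in both lists (chr1:55078190-55078428, minus strand) and nearly the same fold, 2.56 in FF and 2.55 in HKO. Dnaja3 likewise had the same limits (chr16:4706684-4706922, plus strand), with 4.00 and 4.04. Dnajc11 stood at 6.80 and 7.41, and Dnajc15 at 8.15 and 5.38. The folds of Dnajc30 and Hspa9 differed more, with 12 in FF and 37.4 in HKO for Dnajc30 and 1.44 and 4.12 for Hspa9. Hspd1 has 5 pseudogenes named after it in the RefSeq table, and Hspa9, Dnaja1 and Dnajb6 have 1 each, so that reads of these genes may be shared with copies and their peaks are uncertain.

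Cytosolic J-domain partners of Hsp70 included Dnajb1, Dnajb4 and Dnajb6, which with Dnajc14 had 6 peaks each, the most of any member. Dnajb1, the main heat-inducible one, had 3 FF peaks and 3 HKO peaks, all overlapping, on the plus strand of chromosome 8. At 83608265 in both lists a peak began whose centre lay 224 bp (FF) and 195 bp (HKO) inside the gene span, and at -149 bp and -178 bp from the nearest start in the promoter table, with 39.2 and 5.25 as folds. The next pair, beginning at 83609830 and 83609890, had 37.6 and 9.03, and the last, beginning at 83610711 and 83610741, had 16.8 and 11. The FF fold was the higher at all 3 sites, and 39.2 was the highest FF fold of any member. Dnajb4, a close relative, also had 3 pairs, at 4.73 and 3.30, 10.6 and 11.5, and 6.66 and 8.42. Dnajb5, another relative, had a single HKO peak at chr4:42957396-42957605 (fold 13.2, log10 q -5.27).

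Dnajb2, a J-domain protein that binds ubiquitin, showed the smallest HKO to FF ratio of any pair, at its start. The FF peak there had a fold of 26.6 (log10 q -10.4) and the HKO peak 2.65 (log10 q -2.05), both centred 165 bp from the gene start. Its internal pair stood at 4.04 and 4.61, and its FF peak 344 bp from the gene end (fold 1.86) had no overlap in HKO. Dnajb6, a suppressor of protein aggregation, had pairs at 18.4 and 16.1 and at 4.99 and 7.21. Its other FF peaks, at 3.48 and 4.70, overlapped no HKO peak. Dnaja1 and Dnaja2 are close relatives of each other. Dnaja1 had 6.05 in FF and 24.9 in HKO, and Dnaja2 had 3.85 and 1.71.

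The remaining DnaJC genes have varied tasks. Dnajc2, which acts at the ribosome, had 1 peak, in the FF list, centred 163 bp from the gene start (chr5:21785026-21785175, minus strand, fold 11, log10 q -2.52). Dnajc7, a co-chaperone with tetratricopeptide repeats that binds Hsp70 and Hsp90, had 2 peaks, both in the HKO list and both weak (fold 1.66 and 2.11, log10 q -3.21 and -4.48). Dnajc8, a spliceosome-associated protein, had a start pair at 11.7 and 16.1 and an end pair at 3.94 and 8.30. Dnajc9, a histone chaperone, had a peak in each list, but at different places, 858 bp from the gene start in FF (fold 6.27) and 756 bp from the end in HKO (fold 6.36), with log10 q values of -2.07 and -2.04. Dnajc22 had an end pair at 9.06 and 8.76 with a q of minus infinity in both lists, an internal pair at 3.66 and 2.26, and an HKO peak at chr15:99101332-99101542 with no overlap (fold 4.65, log10 q -26.2). Dnajc25 had an internal pair at 11 and 30.5. Dnajc28 had 2 FF peaks, at 17.7 and 5.57, that both overlapped a single HKO peak of 1139 bp (27.2). The endosomal Dnajc13 stood at 5.09 and 11.9, and Dnajc21, of ribosome biogenesis, at 4.80 and 6.79.

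Among cytosolic Hsp70 and Hsp110 genes, Hspa2, best known from male germ cells, had 1 peak, in the HKO list (chr12:76406190-76406399, plus strand, fold 18.7, log10 q -3.97). The divergent Hspa12a had 1 FF peak (14.1) and 2 HKO peaks (11.9 and 13.6) over the same stretch. Hspa12b, its relative of endothelial cells, had a pair at 21.1 and 18.7 and a further HKO peak at 14.4. Hspa14 stood at 11 and 11.9. Of the exchange factors, Hspa4 had 2 pairs, at 1.86 and 5.75 and at 2.82 and 3.10. Hsph1 had a start pair, its centres 342 bp and 357 bp into the gene span, at 7.44 in FF and 4.53 in HKO.

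Small heat shock proteins gave the strongest HKO peak without overlap. Hspb6, also called Hsp20, had an HKO peak 192 bp from the gene end at chr7:30555058-30555443 on the plus strand, with fold 52.6, log10 q -34.8 and no FF peak there. Its other peak, near the start, was in both lists, at 23.5 in FF and 8.06 in HKO. Hspb1 (Hsp25) had a single peak, in HKO (fold 3.39, log10 q -1.51), with the weakest q of any member peak. Hspb8 had, beside its FF start peak, a neighbouring pair at 2.71 and 2.50.

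The last 3 symbols that the rule takes in name proteins of another kind or partners. Hspg2 encodes perlecan, a heparan sulfate proteoglycan and no chaperone, and had an end pair at 9.58 and 24.2 and a further HKO peak at 11.9. Hspbp1, an exchange factor of Hsp70, had a pair with the same limits in both lists at 6.27 and 14.0. Hspbap1, a partner of Hspb1, had a pair at 14.1 and 7.53 and a peak without overlap in each list, at 11.7 in FF and 14.4 in HKO.

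List-specific peaks had weaker q values than overlapping ones, on the chaperone genes as over all genes. The FF list had 13 (19.7%, 25.2% of all FF peaks) and the HKO list 14 (20.9%, 28.5% of all HKO peaks). Their median log10 q was -2.52 and -4.23, beside -14.0 and -19.5 for overlapping peaks, and over all genes it was -3.17 and -3.57, beside -12.5 and -14.7. Those with q up to 1e-05 and at least 2-fold enrichment were 3 FF peaks, on Hsp90b1, Hspb8 and Dnajb6 (4.55%, 6.4% of all FF peaks), and 5 HKO peaks, on Hspb6, Dnajc22, Dnajc10, Dnajc3 and Dnajb5 (7.46%, 8.87% of all HKO peaks). At a q of 1e-03 the HKO number was 9 and at 1e-10 it was 2.

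Many of the weaker values repeat. The same p, q and fold together were listed for another peak of the same list in 17 of 66 FF member peaks (25.8%, 37.3% of all FF peaks) and 23 of 67 HKO member peaks (34.3%, 38.9% of all HKO peaks). Fold 11.7 with log10 q -2.12, for example, was listed for 159 FF peaks, those on Dnajc8, Dnajc14 and Hspbap1 among them. The FF values of Hspa14 and Hspa12a were listed for 160 and 145 peaks. In HKO, fold 11.9 on Hspa14 and Hspa12a was listed with the same p and q for 167 peaks. The HKO values of Hspa2, Dnajc18 and the further Hspa12b peak were listed for 87, 130 and 177 peaks. Such folds do not rank these genes.

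The place of list-specific peaks along the gene was counted for both lists, with no test between them. Of the 13 FF-specific peaks, 6 (46.2%, 23.2 to 70.9) had their centre no more than 500 bp from the annotated start, on Hsp90b1, Hspa5, Dnajb11, Dnajc14, Dnajc2 and Hspb8; the share of all FF-specific peaks was 34.7%. Of the 14 HKO-specific peaks 2 (14.3%, 4.01 to 39.9) lay there, on Hspb1 and Hspbap1, beside 4.71%. Within 1000 bp of the gene end were 7 HKO-specific peaks (50%, 26.8 to 73.2), on Dnajb12, Dnajc7, Dnajc9, Hspa2, Hspa12b, Hspb6 and Hspg2, beside 33.6%, and 1 FF-specific peak (7.69%, 1.37 to 33.3), on Dnajb2, beside 17.1%. All 4 of these intervals held the value for all genes, and the intervals of the lists overlapped at starts and at ends. With all member peaks counted, 11 of 66 FF peaks (16.7%, 15% of all FF peaks) and 7 of 67 HKO peaks (10.4%, 7.39% of all HKO peaks) were at a start.

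**Figure D2:**
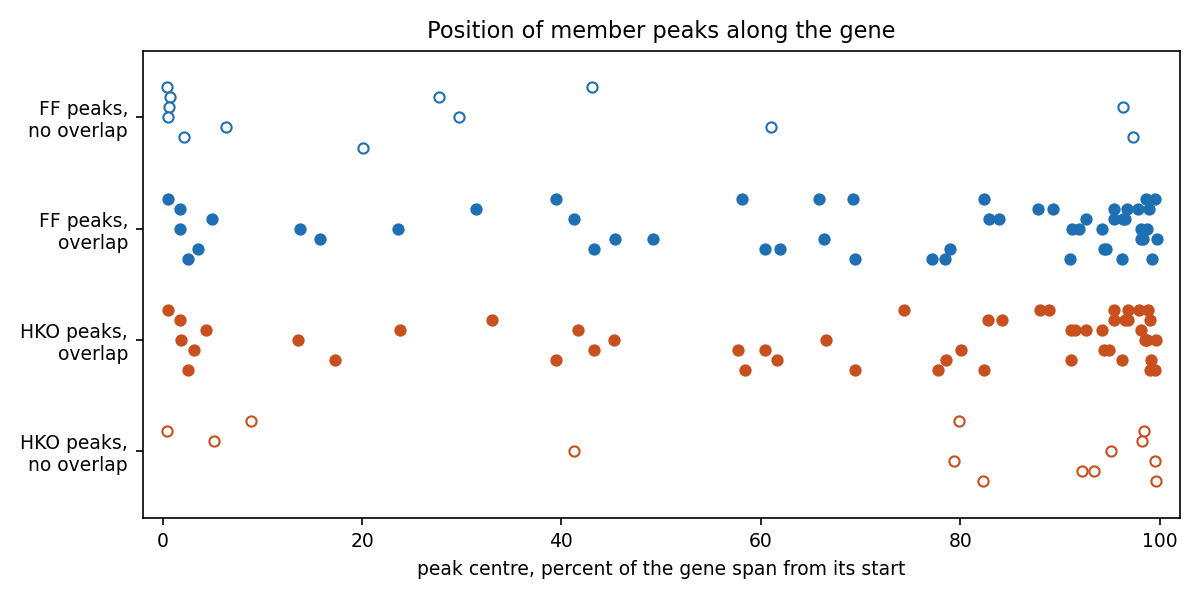
Centre of each member peak as a percentage of the gene span from the annotated start, in 4 rows by list and by overlap with the other list; vertical spread within a row separates points. Of the FF peaks without overlap 6 of 13 lie within 500 bp of the start, and of the HKO peaks without overlap 7 of 14 lie within 1000 bp of the end.

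**Figure D3:**
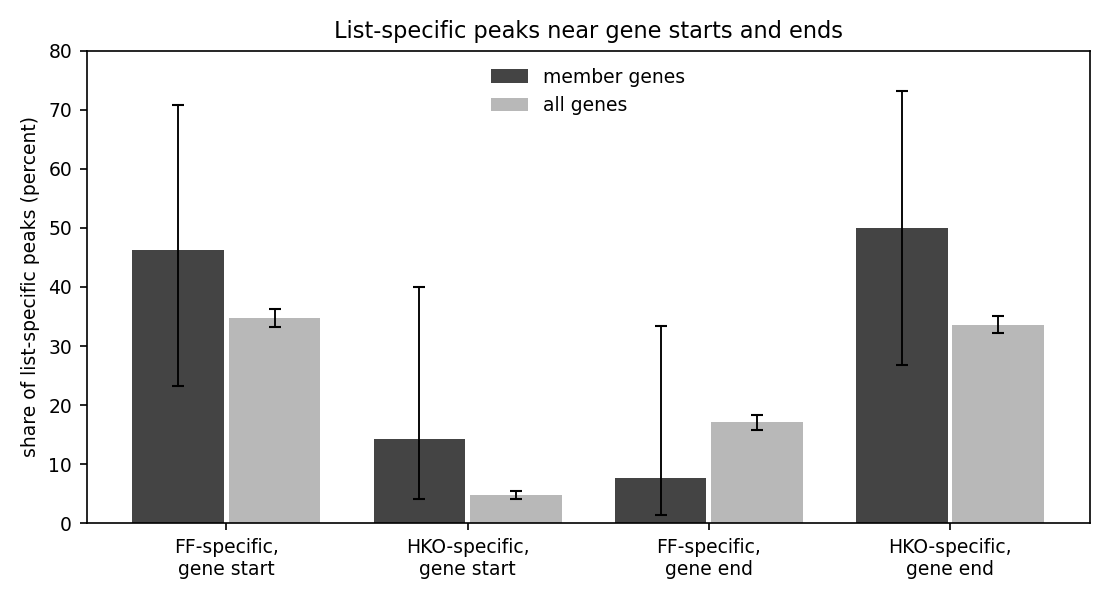
Share of list-specific peaks (percent) centred within 500 bp of the gene start or 1000 bp of the gene end, for the member genes (dark) and all genes (light), with 95% Wilson intervals that cover counting error. The member share at starts is 46.2% in FF and 14.3% in HKO, and at ends 7.69% and 50%.

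Overlapping peaks were set in 52 pairs, each peak being the best overlap of the other. Only 6 of the 52 pairs had the same limits in both lists, so most ratios compare folds over stretches that differ in part. The HKO fold was the higher in 29 of 52 pairs (59.6% of all pairs). The ratio of the HKO fold to the FF fold had a median of 1.08 (quartiles 0.659 and 2.26), beside 1.22 over 10106 pairs of all genes. An HKO fold at least 2 times the FF fold was listed for 15 pairs (28.8%, 18.3 to 42.3; 28.2% of all pairs), and the reverse for 7 pairs (13.5%, 6.68 to 25.3; 14.9% of all pairs). Both intervals held the share over all pairs. The largest ratios were on Dnajb11 (the internal pair), Dnajc16, Dnaja1 and Dnajc10, at 12.03, 5.23, 4.12 and 4.07. In these the HKO peak was the longer, with 391, 509, 329 and 270 bp beside 241, 210, 269 and 150 bp in FF. The smallest ratios were on Dnajb2, Dnajb1 at its start and Dnajb1 at its next site, at 0.0996, 0.134 and 0.240. In these the FF peak was the longer.

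The pairs were also counted by position. Of 5 pairs with the FF centre at the start of the gene span, 4 had the higher fold in FF. These were Dnajb1, Dnajb2, Hspb6 and Hsph1, and Dnajc8 had the higher fold in HKO. Over all genes the FF fold was the higher in 615 of 860 such pairs. In 3 of the 5 the FF fold passed 2 times the HKO fold, beside 46.3% over all genes. By the nearest start in the promoter table, the Dnajb4 and Hspbp1 pairs also lay within 500 bp. Both had the higher fold in HKO, at 6.66 and 8.42 and at 6.27 and 14, and Hspbp1 passed 2 times. Of 16 pairs at the gene end, 11 had the higher fold in HKO, beside 1992 of 3024 such pairs over all genes. In 8 the HKO fold passed 2 times the FF fold, beside 32.2% over all genes. Of these 8, the Dnajc18 pair had an HKO value listed alike for 130 peaks, and its peaks shared 20.5% of their length. The FF value of the Hspb6 start pair was listed alike for 39 FF peaks, and the Dnajc8 start values for 159 FF and 130 HKO peaks. Of the 5 pairs at the start of the gene span, Dnajb1, Dnajb2 and Hsph1 are thus those whose FF fold was the gene's own. The HKO value of the Hsph1 pair, however, was listed alike for 14 HKO peaks. At ends the median ratio was 1.60 on these genes and 1.36 over all.

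**Figure D4:**
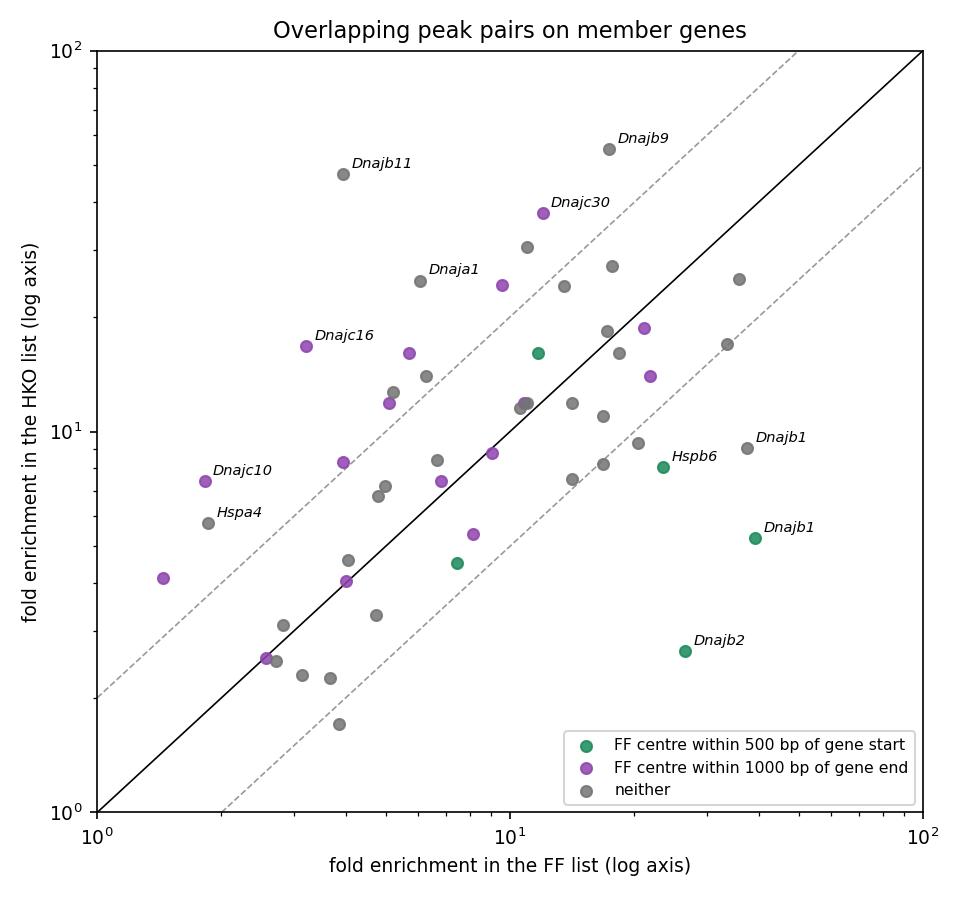
Fold enrichment in the FF list against that in the HKO list (both log axes) for the 52 overlapping pairs on the member genes, coloured by the place of the FF peak; the solid line is equality and dashed lines a ratio of 2. Dnajb1, Dnajb2 and Hspb6 lie below the lower dashed line at gene starts, and 8 of 16 pairs at gene ends lie above the upper one.

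Other folding genes were taken from a list of 59 co-chaperones, chaperonin subunits, ER folding enzymes and mitochondrial chaperones and proteases that the symbol rule does not reach. Of these, 43 had a peak, 36 in both lists, 5 in the FF list alone and 2 in the HKO list alone. Over all genes with a peak the shares were 75.6%, 11.2% and 13.2%. The 5 were Stub1, the ubiquitin ligase of Hsp70 clients (fold 3.62), Ptges3, the Hsp90 co-chaperone p23 (8.62), Fkbp4, an immunophilin of Hsp90 complexes (3.31 at its start), Cct6a, a subunit of the TRiC chaperonin (3.25), and Clpp, a mitochondrial protease (6.66 at its start). The 2 were Trap1, the mitochondrial Hsp90 (10.3, log10 q -52.5), and Pfdn4, a prefoldin subunit (11.9, log10 q -2.40). Each of the first 5 had a peak centred between 90 bp and 133 bp from the gene start, and that of Trap1 was 75 bp from the gene end. Of the 21 FF-specific peaks of the list 13 (61.9%) were at a start, beside 34.7% of all FF-specific peaks. Of the 8 HKO-specific peaks 0 were, beside 4.71% of all HKO-specific peaks. The list was chosen with earlier results of these data known, so these shares describe it and give no independent support. Chosen after their values were seen, examples among the 13 are those of the ER proteins calreticulin (Calr, fold 3.61, log10 q -56.9) and Pdia4 (8.22, -6.66) and of Hsf1, the main heat shock transcription factor (9.40, -1.99). Hyou1, an Hsp110-like exchange factor of the ER, likewise chosen, had a start pair at 16.2 in FF and 5.37 in HKO, and Sec63, a J-domain protein of the ER translocon, one at 50.8 and 4.75.

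Of the 74 protein-coding genes in the RefSeq table that the rule would take, 46 had a peak (62.2%, 50.8 to 72.4), beside 40.8% of all protein-coding genes. No peak was listed for 28, among them Hspa8, the constitutive cytosolic Hsp70, Hsp90aa1, the inducible cytosolic Hsp90, Hspe1, the partner of Hspd1, and the stress-induced pair Hspa1a and Hspa1b, near-identical copies whose reads an aligner can place in either. Of the remainder 16 were DnaJ genes, including Dnajc5, Dnajc12, Dnajc19 and Dnaja4. Another 5, Hspb11 among them, were classed as small heat shock proteins by symbol alone, and the others were Hspa1l and Hspa4l. Whether these RNAs were too scarce for a peak was not tested, since the lists give no RNA levels.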

How the data were processed

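Samples were grouped by their titles. Per the series design text, the authors ran exomePeak 2.16.0 once per genotype on IP and input, keeping peaks with a q-value under 0.05. Build GRCm38.p6 and the tools BWA 0.7.12, HOMER 4.9.1 and fastp 0.19.11 stand in the submitters' processing notes. Labels and design text differ on the antibody supplier and library kit, which was not settled. Each deposited list gives a p-value per peak, its log10 and the log10 of the q-value, an unbounded score, and the fold enrichment, a ratio of IP over input. They were used within a list to describe or filter peaks.

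Overlaps, positions in RefSeq gene spans (GRCm38.p6), reciprocal best pairs and motif matches were computed with Python 3.11.15, pandas 2.3.3, numpy 2.4.6 and scipy 1.17.1, and plotted with matplotlib 3.10.9. Coordinates count from base 1. Distances run along the genome from the centre of a peak's exonic sequence. All member peaks matched a gene span, and 9 FF and 6 HKO peaks of other genes did not. Finding overlaps and positions was tested on simulated data. With 1 pool per genotype no test between genotypes was possible.

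The members and gene lists were chosen with earlier results of these data known. The rule for named genes gave every member a mention and gave values per peak for members in 1 list alone, with a strong list-specific peak, with a peak at the start, or with the highest fold or most peaks of their class. Values of the other members, their places in the cell, the pairs of peaks and the motifs were added after values were seen. Alternatives covered the thresholds of q and fold, equal list lengths, the overlap and the windows.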

Additional observations from a re-analysis of the deposited data

How the results depend on the processing

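A share was taken to hold if it stayed within its counting interval, and a count if it stayed within 1.5 times. The exceptions were the number of genes in the HKO list alone, which was 3 with q values up to 1e-05, the strong HKO-specific peaks, which numbered 9 with q up to 1e-03 and 2 with q up to 1e-10, and the pairs whose FF fold exceeded the HKO fold by the set ratio, which were 26.9% at a ratio of 1.5, an alternative chosen after seeing the data. In each the altered threshold itself takes in more or fewer peaks. The share of members in both lists ran from 78.3% with folds of at least 2 to 84.4% with lists of equal length. FF-specific peaks at a start made up 30.8% with a window of 200 bp, 53.8% with 1000 bp, 50% with the nearest start in the promoter table and 54.5% without members that have a named pseudogene, the last 2 settings also added after the data were seen. HKO-specific peaks at an end made up 35.7% with 500 bp and 71.4% with 2000 bp. No paired analysis was possible because every genotype was a single pool without replicate numbers. How far read depth limits either list is unknown, as no read totals come with the peaks.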
